A study of Mus musculus with 20 samples.

Results

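The APP family of the mouse is encoded by 3 genes, App, Aplp1 and Aplp2, and it is described here across 20 brain RNA-seq libraries as 3 of the 24421 genes in the deposited counts. The genes were taken because they are the targets of the deletion, not for their measured values. Libraries were made from 2 regions, the neocortex and the hippocampus, and from 2 genotypes, cTKO mice and their littermate controls, all aged 3 months, and each genotype and region had 5 libraries. The cTKO mice carried floxed App, Aplp1 and Aplp2 alleles and a Camk2a-Cre transgene. The controls, called wild type in the labels, carried the same floxed alleles without Cre, so no library represents unmodified alleles. All mice were on a hybrid background and both sexes were used. The methods give 5 mice of each genotype as the source of both regions. The Camk2a promoter drives Cre in excitatory neurons of the forebrain after birth, so interneurons, glia and vascular cells keep the undeleted alleles. The study asked what the adult cortex expresses when the whole family is inactivated in excitatory neurons, and the values below give how much family RNA was left, how evenly it was lost and whether the genes varied together.

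APP, APLP1 and APLP2 are membrane proteins with a large extracellular part and a short cytoplasmic tail. α- or β-secretases shed the extracellular part, and γ-secretase then releases the intracellular domain (AICD from APP). APP is also the source of the amyloid-β peptide, which the other two lack. App and Aplp2 are used by many cell types of the brain and body, whereas Aplp1 is mainly a gene of the nervous system.

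The family is conserved enough that its members can be aligned, and reads shared between paralogs could blur their separate counts, so the most alike coding stretch is shown. Each stretch is 60 bases long, lies in exon 5 of a coding transcript and encodes a segment of the extracellular E1 region. The sequences are from the GENCODE M21 transcripts of GRCm38 (mm10), all on the minus strand, and capitals mark the 41 bases (68.3%) that are the same in all 3 genes.
App (chr16:85079942-85080001): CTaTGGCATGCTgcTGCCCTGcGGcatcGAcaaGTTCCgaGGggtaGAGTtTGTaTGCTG
Aplp1 (chr7:30442522-30442581): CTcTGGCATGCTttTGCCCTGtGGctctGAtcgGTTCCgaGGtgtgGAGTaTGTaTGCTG
Aplp2 (chr9:31170542-31170601): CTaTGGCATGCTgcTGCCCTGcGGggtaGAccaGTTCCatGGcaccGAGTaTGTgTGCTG
In this stretch, App matched Aplp1 at 47 of 60 bases and Aplp2 at 48, and Aplp1 matched Aplp2 at 43. Over ungapped windows of 100 bases, the length of a read, App and Aplp2 differed at 19 bases or more, App and Aplp1 at 29 or more, and Aplp1 and Aplp2 at 28 or more. The longest run shared by App and Aplp2 was 24 bases, and the other pairs shared at most 14. How reads that matched more than 1 place were counted is not given in the sources used here.

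In the same annotation, App lies on chromosome 16 from 84949685 to 85173766, Aplp1 on chromosome 7 from 30434982 to 30445535, and Aplp2 on chromosome 9 from 31149557 to 31211815. App overlaps 5 annotated genes on the opposite strand. Of these, Gm10791 shares 0 exonic bases with App and had 0 to 18 counts per library, and Gm49227 shares 113 exonic bases. Aplp1 and Aplp2 overlap no other gene there. Library totals ranged from 12169474 to 25331954 counts, and the 3 genes had between 3279 and 44154 counts each per library. The floor used for a library, 3 counts, was 0.118 to 0.247 CPM (counts scaled to library size), so depth did not limit the detection of the family. That floor covers counting error only. Libraries 5 of cTKO neocortex and 4 of cTKO hippocampus stood apart through embryonic globin genes, with 290.6 and 188.5 CPM against 0.299 to 1.32 CPM in the other 18 libraries. Whether both came from 1 mouse was not tested. Results that rest on these libraries are given with and without them.

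Together, the family took 0.318 to 0.371% of all counts in control libraries and 0.0877 to 0.110% in cTKO libraries. In CPM with TMM-scaled library sizes, the summed family was at 3595 ± 140 (SD, n = 5) in control neocortex and 945 ± 71.7 in cTKO neocortex. It was at 3400 ± 169 in control hippocampus and 1034 ± 46.1 in cTKO hippocampus. The share left, defined as the CPM of a cTKO library over the control mean of its region, was thus 26.3% ± 2.0 (SD, n = 5) in the neocortex and 30.4% ± 1.36 in the hippocampus for the family as a whole. For each of the 3 genes, the highest cTKO library was below the lowest control library of its region, and all 3 passed edgeR's quasi-likelihood test in both regions (highest FDR 3.31e-05). Among all genes tested, 0.101% were called lower in cTKO neocortex and 0.175% in cTKO hippocampus, and 1.6% and 1.23% were lower without overlap. The 3 genes held the 3 lowest p-values in either region. In tissue RNA, fewer cells of a type and less RNA per cell cannot be told apart. The counts are also per gene, so RNA from cells without Cre, RNA from cells that escaped recombination and reads on exons outside the deleted segments cannot be told apart.

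App encodes the amyloid precursor protein. Its levels in control neocortex were 1811, 1621, 1635, 1519 and 1501 CPM in libraries 1 to 5, and those in cTKO neocortex were 407, 405, 378, 358 and 331 CPM. In the hippocampus, controls held 1646, 1524, 1377, 1533 and 1520.4 CPM and cTKO mice 441, 435, 432, 448 and 461 CPM. The genotypes were far apart, since the lowest control library of the neocortex was 3.69 times the highest cTKO library. Within cTKO hippocampus, App had the lowest spread of any member in any group, with a coefficient of variation (CV) of 2.60%, whereas its CV was 8.53% in cTKO neocortex, 7.63% in control neocortex and 6.30% in control hippocampus. The share of App left was 23.2% ± 1.98 in the neocortex, from 20.5 to 25.1%, and 29.2% ± 0.757 in the hippocampus, from 28.4 to 30.3%. The ranges of the regions did not overlap, but they leave out the spread of the control libraries. How many of all genes separate in this way was not measured. The difference did not pass edgeR's interaction test below (FDR 0.494). The fitted share had a 95% interval of 21.0 to 26% in the neocortex and 26.6 to 32.0% in the hippocampus. Without the 2 libraries with embryonic globins, the share left was 23.9% and 29.1%, an alternative chosen after seeing the data.

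Aplp1, the member used mainly in the nervous system, stood at 1137, 1204, 1245, 1246 and 1234 CPM in control neocortex, against 295, 319, 393, 327 and 260.0 CPM in cTKO neocortex. In the hippocampus, the controls held 1263, 1340.3, 1134, 1283 and 1289 CPM and the cTKO libraries 361, 352, 345, 282 and 314 CPM. Aplp1 was the steadiest member in control neocortex (CV 3.78%) and the most variable one in cTKO neocortex (CV 15.4%), where library 3 was highest and library 5, with embryonic globins, lowest. Its share left was 26.3% ± 4.04 in the neocortex, from 21.4 to 32.4%, and 26.2% ± 2.56 in the hippocampus, from 22.4 to 28.6%, so the ranges of the regions overlapped. The fitted 95% intervals were 23.2 to 30.1% and 23.3 to 29.5%. Library 4 of cTKO hippocampus, which also had embryonic globins, was again the lowest. Without both of these libraries, 27.5% of Aplp1 was left in the neocortex and 27.2% in the hippocampus.

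Aplp2 encodes the broadly used paralog closest to APP. Control neocortex held 718, 833, 831, 819.7 and 622 CPM, and cTKO neocortex 268, 254, 251, 236 and 243 CPM. Control hippocampus held 630.3, 679, 640.4, 646 and 494 CPM, and cTKO hippocampus 295, 236, 269, 239 and 264 CPM. Control library 5 was the lowest of its group in both regions, and it was the only control library of the hippocampus under 500 CPM. Of the 3 genes, Aplp2 kept the highest mean share in both regions, 32.7% ± 1.59 in the neocortex, from 30.8 to 35.1%, and 42.1% ± 3.92 in the hippocampus, from 38.1 to 47.7%. Here too, the ranges of the regions did not overlap, but they leave out the spread of the control libraries. The difference did not pass edgeR's interaction test below (FDR 0.877). The fitted 95% intervals were 29.1 to 37.2% and 36.6 to 48.5%. Without the 2 libraries with embryonic globins, the values were 33.0% and 43.0%.

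**Figure D1:**
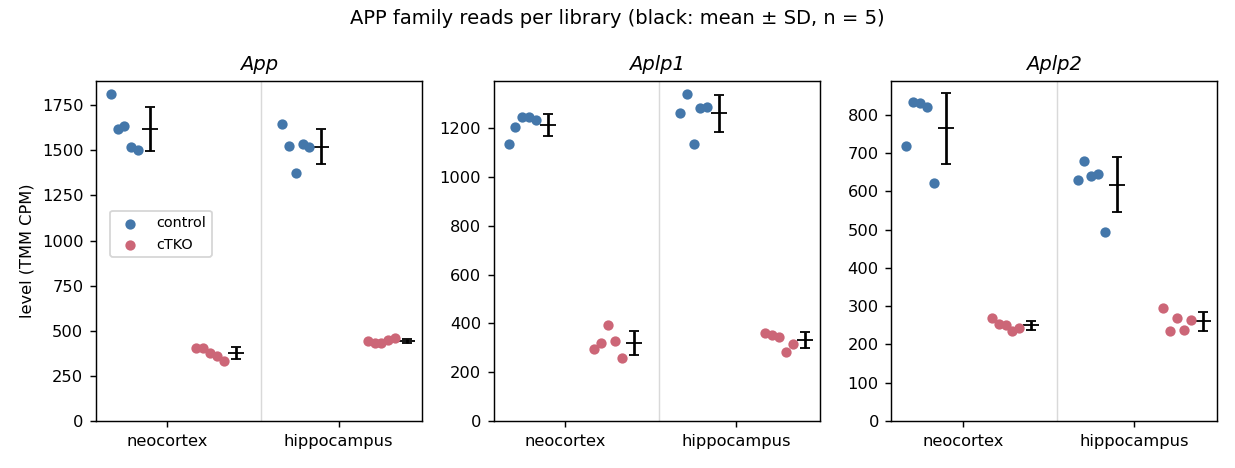
Levels of App, Aplp1 and Aplp2 in CPM with TMM-scaled library sizes (vertical axes start at 0 and differ between genes), with each point a library, blue for controls and red for cTKO mice, and black marks for the mean and SD of 5 libraries. No cTKO library reaches a control library of its region for any of the 3 genes, and the App points of cTKO hippocampus lie closest together (432 to 461 CPM).

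**Figure D2:**
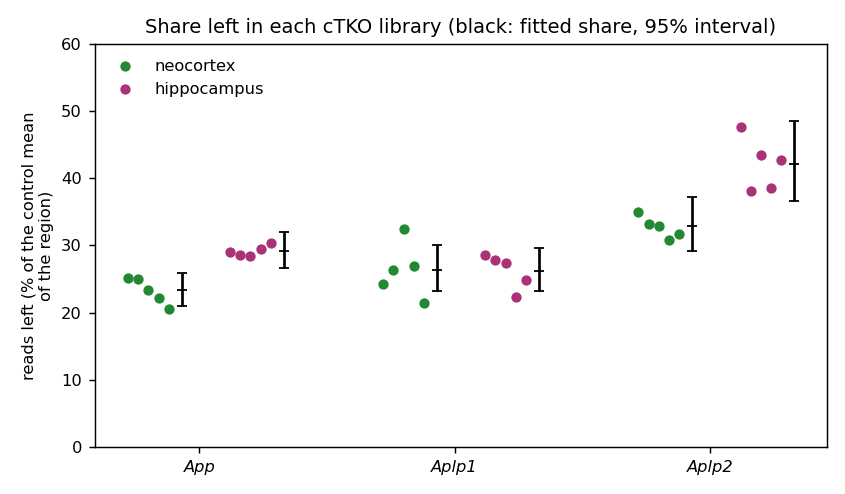
Share of reads left in each cTKO library, in percent of the control mean of its region, with green points for the neocortex, purple points for the hippocampus and black marks for the fitted share with its 95% interval. App and Aplp2 points do not overlap between the regions, whereas Aplp1 points do (21.4 to 32.4% and 22.4 to 28.6%). The points leave out the spread of the controls, and none of these genes passed the interaction test of region and genotype.

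Counting error was small beside these spreads. It amounted to 0.560 to 1.23% of the level for App, whose CV ran up to 8.53%. The biological coefficient of variation that edgeR estimated for the genotype comparison was 8.13% for App, 9.87% for Aplp1 and 9.41% for Aplp2 in the neocortex, and 8.13%, 9.70% and 11.1% in the hippocampus. The median over genes with at least 100 CPM was 8.26% in the neocortex (2449 genes) and 9.60% in the hippocampus (2404 genes). By this estimate, the family was near the median of other abundant genes. The estimate for a gene is drawn towards that of genes of like abundance, so the likeness is partly built in.

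Whether the share left differed between regions was tested as the interaction of region and genotype in all 20 libraries. The main fit took these libraries as independent, although both regions came from the same mice. For App, the share left in the hippocampus was 1.26 times that in the neocortex (95% interval 1.10 to 1.43), and for Aplp2 1.29 times (1.07 to 1.54). Neither ratio passed edgeR's quasi-likelihood test after Benjamini-Hochberg adjustment over 14192 genes. App had an unadjusted p of 0.00166 and an FDR of 0.494, and Aplp2 an unadjusted p of 0.00890 and an FDR of 0.877. They ranked at place 44 and 144 by p. For Aplp1 the ratio was 0.997, with an interval of 0.837 to 1.19 (unadjusted p 0.970). By this test 0.0564% of all genes were called and 3.75% had an unadjusted p under 0.05. DESeq2 and the likelihood ratio test also called 0 of the 3 genes, with a lowest FDR of 0.117 for App in DESeq2. With the replicate number as a block, the quasi-likelihood test gave Aplp2 an unadjusted p of 0.000587 and an FDR of 0.177. For App they were 0.00403 and 0.427. In cTKO mice, the libraries numbered 4 and 5 did not deviate together between the regions, so this block may join different mice. The regions were extracted with different RNA kits in the study, so region and kit cannot be told apart.

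Levels within a genotype were compared between regions as well, with 59.1% of all genes called in controls and 41.3% in cTKO mice. In both genotypes, the main fits took the libraries as independent, although both regions came from the same mice. Aplp2 was lower in control hippocampus than in control neocortex by a log2 fold change of -0.31 (standard error 0.092, edgeR FDR 0.00892). This fit ignored the pairing of the control libraries by number. With the number as a block, the standard error was 0.050 and the edgeR FDR 9.0e-05. App differed by -0.09 (FDR 0.176) and Aplp1 by 0.05 (FDR 0.417) in controls. In cTKO mice, App was higher in the hippocampus by 0.22 (standard error 0.069, FDR 0.0204), but this call was lost without library 4 (FDR 0.0618) or library 5 of cTKO neocortex (FDR 0.0554) and without both libraries with embryonic globins (log2 fold change 0.18, FDR 0.0770). Aplp1 and Aplp2 differed by 0.04 each between cTKO regions (FDR 0.810 and 0.707). Neither of these differences exceeded the spread between libraries.

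The 3 genes did not lose equal shares. This was tested on ratios of CPM within a library, which do not depend on the library size. Gene length scales these ratios but cancels from their difference between genotypes. The App to Aplp2 ratio was 2.12 in control neocortex and 1.5 in cTKO neocortex, a log2 difference of -0.50, and 2.47 and 1.71 in the hippocampus, a difference of -0.53. In both regions, 5 of 5 cTKO libraries were below 5 of 5 controls (exact permutation test, two-sided, p = 0.00794, the smallest that 252 splits allow, and 0.0159 after Benjamini-Hochberg adjustment over 6 ratio tests). The share of App left was therefore 0.705 times that of Aplp2 in the neocortex and 0.691 times in the hippocampus. The Aplp1 to Aplp2 ratio fell from 2.05 to 1.27 in the hippocampus, a log2 difference of -0.69 without overlap (exact permutation p = 0.00794, adjusted 0.0159). In the neocortex it was 1.6 in controls and 1.26 in cTKO mice (log2 difference -0.34), which did not pass the adjustment (exact permutation p = 0.0397, adjusted 0.0595) but passed without library 3 of cTKO neocortex (adjusted 0.0119). The App to Aplp1 ratio had opposite signs in the 2 regions, -0.17 in the neocortex (exact permutation p = 0.214) and 0.16 in the hippocampus (exact permutation p = 0.103, adjusted 0.124), and neither passed. With libraries left out singly, these differences ran from -0.22 to -0.09 and from 0.10 to 0.19. Without the 2 libraries with embryonic globins, the neocortical App/Aplp1 ratio differed by -0.19 and the hippocampal one by 0.10 (adjusted exact permutation p = 0.198 each). App/Aplp2 then differed by -0.47 and -0.57 and the hippocampal Aplp1/Aplp2 ratio by -0.67 (adjusted exact permutation p = 0.0159 each), and the neocortical Aplp1/Aplp2 ratio by -0.28 (adjusted exact permutation p = 0.119). Control library 5, with the lowest Aplp2 counts, had the highest Aplp1 to Aplp2 ratio of its group in both regions. Without it, the App to Aplp2 ratio still differed by -0.46 in neocortex and -0.45 in hippocampus (adjusted exact permutation p = 0.0159 each). Taking replicate numbers as pairs, the smallest possible p for 5 pairs is above the threshold, and the adjusted p was 0.125 for each of the 3 differences that had passed.

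**Figure D3:**
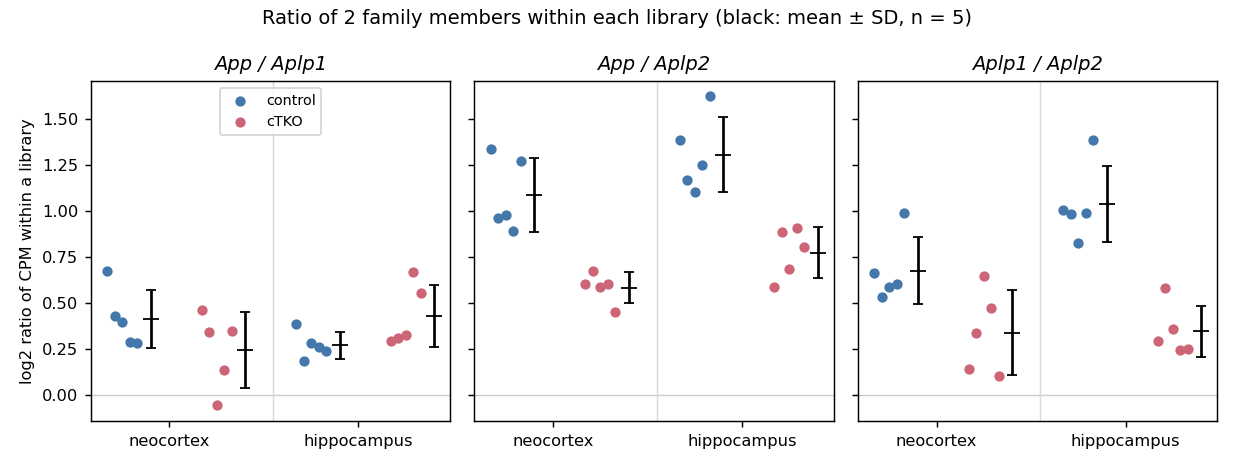
Log2 ratio of the CPM of 2 family members within each library, with blue points for controls, red points for cTKO mice and black marks for the mean and SD of 5 libraries. App/Aplp2 separates the genotypes in both regions with cTKO mice lower, Aplp1/Aplp2 does so in the hippocampus, and App/Aplp1 overlaps between the genotypes.

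Levels of different genes were compared per kilobase, and the order then depended on which length was used. Over all annotated exons (App 12996 bases, Aplp1 3017 and Aplp2 5875), Aplp1 made up 61.3% ± 2.25 (SD, n = 5) of the family in control neocortex, Aplp2 19.8% ± 1.85 and App 19.0% ± 1.67. In control hippocampus, the shares were 65.3% ± 1.70 for Aplp1, 18.3% ± 0.789 for App and 16.4% ± 1.86 for Aplp2. Over coding length (2310, 1962 and 2253 bases), App led in control neocortex with 42.2%, Aplp1 had 37.3% and Aplp2 20.4%, and in control hippocampus the shares were 41.8%, 40.8% and 17.4%. The annotated exons of App add up to 12996 bases while its longest coding transcript has 8167, and which transcripts the reads came from is not in gene counts, so the place of App among the 3 was not settled. Aplp2 was below Aplp1 with each of the lengths tried.

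The Aplp2 part of the family was larger in cTKO mice with every length. Per kilobase of exons it was 24.2% ± 2.39 in cTKO neocortex and 23.6% ± 1.43 in cTKO hippocampus, and per kilobase of coding length 25.6% and 24.2%. App took 16.4% ± 1.39 of the exon-based total in cTKO neocortex and 18.2% ± 1.56 in cTKO hippocampus, and Aplp1 took 59.4% ± 3.6 and 58.2% ± 2.31. The tests of these shifts are those of the ratios above.

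**Figure D4:**
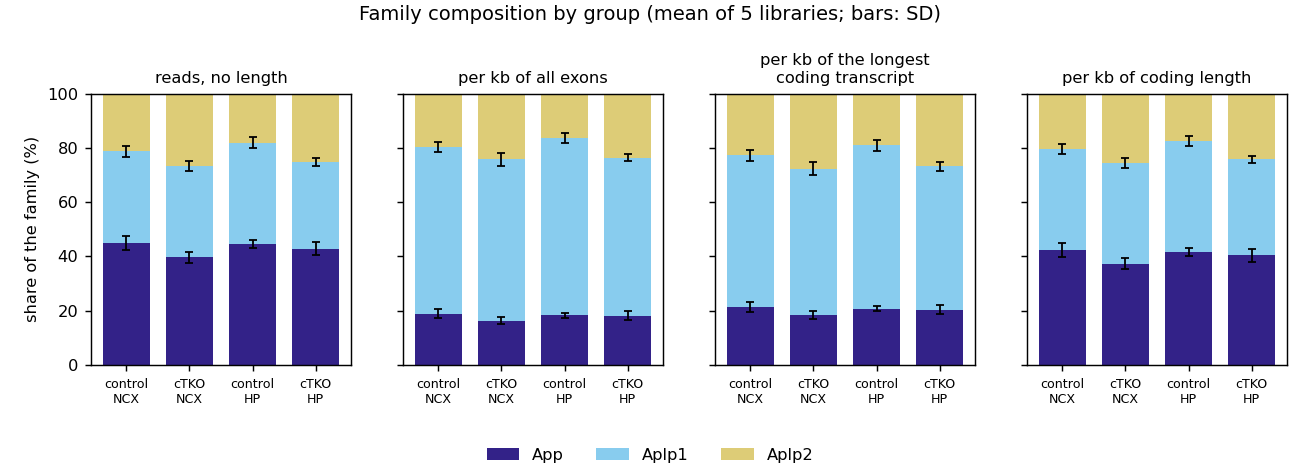
Share of each gene in the family total by group (NCX, neocortex, and HP, hippocampus), from reads without a length and per kilobase of 3 gene lengths, as means of 5 libraries with the SD. App is at 19.0% of control neocortex per kilobase of all exons and at 42.2% per kilobase of coding length, while the Aplp2 part is larger in cTKO than in control bars in each panel.

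Among the 17816 genes with reads and a known exon length in control neocortex, Aplp1 ranked at place 30 per kilobase, Aplp2 at place 200 and App at place 215. In cTKO neocortex, of 18017 genes, they were at places 270, 956 and 1579. In control hippocampus (17796 genes), the places were 39 for Aplp1, 269 for App and 321 for Aplp2, and in cTKO hippocampus (18004 genes) 300, 1354 and 988. Per kilobase of coding length, App was at place 115 of 16167 genes in control neocortex and at place 946 of 16316 in cTKO neocortex. After the deletion, each member remained among the upper 10% of all genes with reads and a known length, a set that includes genes with very few reads.

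Covariation was measured in the 10 libraries of a genotype, as deviations from the mean log2 CPM of the region, because genotypes and regions form separate clusters. In controls, Pearson's r was 0.03 between App and Aplp1 (exact permutation p = 0.928), 0.05 between App and Aplp2 (exact permutation p = 0.874) and 0.03 between Aplp1 and Aplp2 (exact permutation p = 0.934). Spearman's rho was -0.08 (exact permutation p = 0.848), 0.09 (exact permutation p = 0.821) and 0.38 (exact permutation p = 0.304). In cTKO mice, r was 0.20 (exact permutation p = 0.705), 0.35 (exact permutation p = 0.186) and 0.26 (exact permutation p = 0.443), and rho was -0.13 (exact permutation p = 0.778), 0.36 (exact permutation p = 0.260) and 0.15 (exact permutation p = 0.678). The adjusted p over the 6 pairs was 0.934 for each r and 0.848 for each rho. In the 10 libraries of either genotype, no pair of family members thus passed the test. Both regions came from the same mice, so the 10 libraries of a genotype are not fully independent.

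Without the 2 libraries farthest from the median of the first gene, r was -0.51, 0.48 and 0.14 in controls and -0.34, 0.23 and 0.29 in cTKO mice, in the same order of pairs. The sign of App with Aplp1 thus rested on those libraries. Without the 2 libraries with embryonic globins, r in cTKO mice was -0.54 for App with Aplp1, 0.46 for App with Aplp2 and -0.09 for Aplp1 with Aplp2. In each region there were 5 libraries of a genotype, too few for a test, but the sign of r differed between the regions for the 3 pairs in controls and for App with Aplp1 in cTKO mice. As a background, over 10021 other genes with at least 10 CPM, the median r was 0.06 with App, 0.01 with Aplp1 and -0.09 with Aplp2 in controls, and the upper 5% began at 0.76, 0.64 and 0.58. In cTKO mice, the medians were 0.05, 0.10 and 0.01 and the upper 5% began at 0.57, 0.80 and 0.66. The r between members lay inside the range from the 5th to the 95th percentile in both genotypes. App deviations in cTKO mice had an r of 0.74 with the library total (rho 0.43), and the part of depth in the covariation was not tested.

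**Figure D5:**
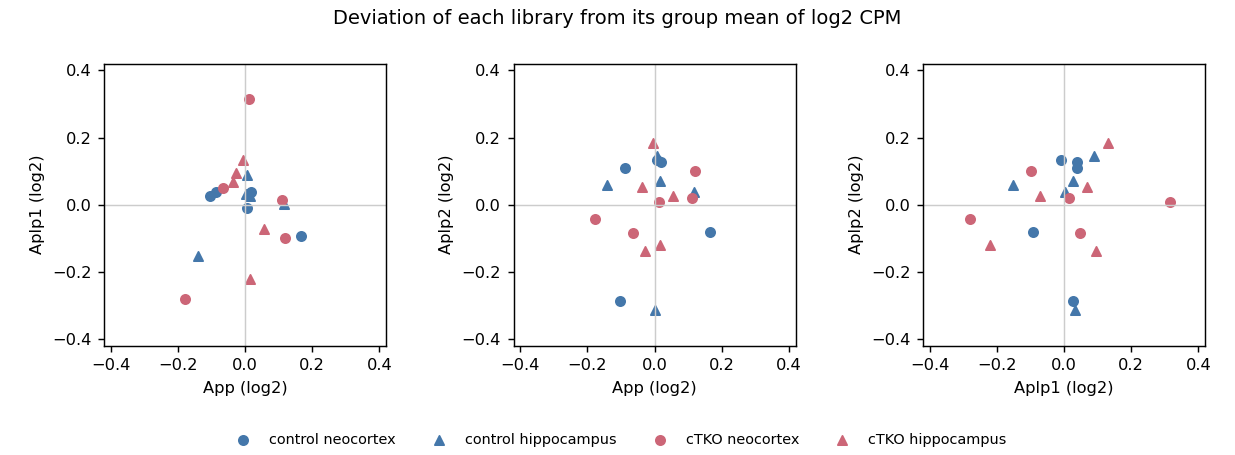
Deviation of each library from its group mean of log2 CPM for the 3 pairs of family members, with blue for controls, red for cTKO mice, circles for the neocortex and triangles for the hippocampus. No pair passed the test in the 10 libraries of a genotype, although blue circles (control neocortex) slope downwards and blue triangles (control hippocampus) upwards for App with Aplp1. The control points at the bottom of the Aplp2 panels are library 5 of the neocortex (-0.29) and of the hippocampus (-0.31).

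The genes most like each member were named by the highest r of the deviations from the 4 group means over 20 libraries, among 10021 other genes. For App they were Abca3, a lipid transporter (r 0.85), Ttpal (0.83) and Adck1 (0.83). For Aplp1 they were Mlf2 (0.95), Atp5d, a subunit of the mitochondrial ATP synthase (0.94), and Tmem151a (0.94). For Aplp2 they were Mrpl21, a protein of the mitochondrial ribosome (0.82), Tceanc2 (0.80, but rho 0.52) and Tspan2, a tetraspanin of oligodendrocytes (0.79). These are the extremes of a long list and share library depth and composition with the members. By the same measure, the other family members ranked far down, between place 2638 and place 4528, with r from 0.13 to 0.15.

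By contrast, when the genotype difference was kept, the members were most like each other. This was built in, because all 3 were deleted and the distance includes the change against controls. For the same reason, the measure picks out other genes with lower levels in cTKO mice. The root mean square difference of log2 CPM, each taken relative to the control mean of the region, was 0.18 between App and Aplp1, 0.40 between App and Aplp2 and 0.42 between Aplp1 and Aplp2, the lowest values of any gene for each member. The nearest gene outside the family was Npas4, a transcription factor induced by neuronal activity, at 0.77 from App, 0.72 from Aplp1 and 0.58 from Aplp2. Frzb followed at 0.88 from App, 0.89 from Aplp1 and 0.62 from Aplp2, with E130012A19Rik at 0.90 from App and 0.85 from Aplp1 and Plcd3 at 0.62 from Aplp2. Npas4 was at 47.9 ± 8.25 CPM in control neocortex and 27.3 ± 3.48 CPM in cTKO neocortex, and at 17.2 ± 5.42 and 6.60 ± 2.23 CPM in the hippocampus.

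Genes that act on or with the family were looked at through 4 lists with 44 genes in all, and edgeR's quasi-likelihood test called 0 of 44 in the neocortex and 0 of 44 in the hippocampus (lowest FDR 0.241 and 0.147). Over all genes, 0.188% and 0.489% were called. At an unadjusted p under 0.05, 2 of the 44 differed in the neocortex and 7 in the hippocampus, against 10.4% and 12% of all genes. The 12 secretase genes, which include the β-secretase Bace1, the α-secretase Adam10 and the γ-secretase subunits, had log2 fold changes from -0.24 (Bace2) to 0.10 (Adam17) in the neocortex and from -0.28 (Aph1c) to 0.36 (Bace2) in the hippocampus, with medians of -0.0025 and 0.01. Bace1 was at -0.02 (FDR 0.938) in neocortex and 0.03 (FDR 0.918) in hippocampus. Adam10 was at 0.09 (FDR 0.694) and -0.04 (FDR 0.888). The medians over all genes were 0.0090 and 0.0049.

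The 12 cytoplasmic adaptors, which bind the tails of the family, ran from -0.10 (Apbb2) to 0.34 (Shc1) in the neocortex and from -0.14 (Apba3) to 0.25 (Numbl) in the hippocampus, with medians of 0.01 in each. Apbb1, which encodes the adaptor FE65, was at 0.05 (FDR 0.883) and 0.07 (FDR 0.763). The 8 sorting and lipoprotein receptor genes had medians of -0.04 and -0.03, and their lowest gene in the neocortex was Sort1, a sorting receptor, at -0.18. The 12 membrane binding partners had medians of 0.04 and 0.06. Among them, Gpc1, a heparan sulfate proteoglycan, was at 0.41 (FDR 0.295) in neocortex and 0.37 (FDR 0.147) in hippocampus. DESeq2 called Sort1 in the neocortex and Gpc1 in the hippocampus, the likelihood ratio test called Gpc1 in the hippocampus, and the quasi-likelihood test called Gpc1 in the neocortex without library 5 of cTKO neocortex (FDR 0.0349).

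Markers of the cell types in the tissue were measured because cells without Cre keep the family. Of 51 markers in 9 lists, 47 could be tested in the neocortex and 48 in the hippocampus, and edgeR's quasi-likelihood test called 0 in each region (lowest FDR 0.121 and 0.0897). At an unadjusted p under 0.05, 6 of the 47 markers differed in the neocortex and 11 of the 48 in the hippocampus, against 10.4% and 12% of all genes. No list had a gene at 0 in a whole group. The 6 markers of excitatory neurons, the cells with Cre, summed to 7515 to 8277 CPM in control neocortex, against 6568 to 7927 CPM in cTKO neocortex, and to 9297 to 10599 and 8275 to 10156 CPM in the hippocampus. Camk2a, whose promoter drives the Cre, was at 5887 ± 269 CPM in control neocortex and 4702 ± 616 CPM in cTKO neocortex (log2 fold change -0.32, FDR 0.162), and at -0.21 in the hippocampus (FDR 0.307). DESeq2, the likelihood ratio test and the quasi-likelihood test without library 3 of cTKO neocortex called Camk2a lower in the neocortex. Slc17a7, the vesicular glutamate transporter of these neurons, was at 0.21 (FDR 0.476) and 0.22 (FDR 0.260).

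The 8 interneuron markers summed to 1351 to 1540 CPM in control and 1297 to 1693 CPM in cTKO neocortex, and to 1144 to 1415 and 1161 to 1526 CPM in the hippocampus. Gad2, an enzyme of GABA synthesis, was at 0.45 (FDR 0.121) and 0.30 (FDR 0.0897), and it was called in both regions by DESeq2 and by the likelihood ratio test, and in the neocortex by the quasi-likelihood test without library 3 or library 5 of cTKO neocortex (FDR 0.0181 without the latter). The 7 astrocyte markers summed to 5965 to 6538 and 5349 to 5904 CPM in the neocortex and to 6643 to 8943 and 5842 to 9106 CPM in the hippocampus. The medians of their log2 fold changes were -0.09 and -0.10, and the lowest were Aldoc at -0.16 in the neocortex and Slc1a3 at -0.20 in the hippocampus. Gfap, a filament protein of these cells, was the highest of the list in both regions, at 0.96 (FDR 0.359) and 1.58 (FDR 0.163) with a wide spread, from 426 to 3108 CPM in cTKO hippocampus, and the likelihood ratio test called it there. The 7 oligodendrocyte markers summed to 3735 to 4956 and 2953 to 5857 CPM in the neocortex and to 4348 to 6405 and 4034 to 6934 CPM in the hippocampus.

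The remaining lists were less abundant. The 3 markers of oligodendrocyte precursors summed to 165 to 192 and 158 to 176 CPM in the neocortex and 164 to 188 and 133 to 169 CPM in the hippocampus. Their log2 fold changes ran from -0.17 to -0.07 in the neocortex and from -0.30 (Cspg4) to -0.14 (Gpr17) in the hippocampus. Pdgfra was at -0.28 there (edgeR FDR 0.169), and one fit of all 20 libraries called it lower (FDR 0.0497). The 6 microglial markers summed to 269 to 297 and 225 to 284 CPM in the neocortex and 304 to 357 and 267 to 365 CPM in the hippocampus. The 6 markers of endothelium and pericytes summed to 213 to 235 and 214 to 230.1 CPM in the neocortex and 175 to 223 and 137 to 211 CPM in the hippocampus. The 5 markers of choroid plexus and ependyma were at 13.4 to 21.2 and 11.2 to 20.4 CPM in the neocortex, but at 83.5 to 2632 and 124 to 592 CPM in the hippocampus. There, Ttr alone ran from 38.3 to 2464 CPM in controls and from 72.9 to 527 CPM in cTKO mice. The part of any of these cell types in the residual App, Aplp1 and Aplp2 reads was not tested.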

How the data were processed

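RNA-seq of 20 libraries (neocortex and hippocampus, cTKO and control, 5 libraries each, from separate mice by genotype) was used. Per the labels and the methods, the authors mapped single-end reads of 100 bases to mm10 with STAR 2.5.4a, counted them per gene with HTSeq (version and strand setting not given in the sources used here) and deposited raw counts by gene symbol, which are whole numbers with totals of 12169474 to 25331954. No 2 libraries held the same values.

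CPM and log2 CPM (prior count 2) were computed on TMM-scaled library sizes over all 20 libraries with edgeR 4.0.16 in R 4.3.3. Genes that exceeded a CPM of 1 in 5 or more libraries of a fit were tested with the quasi-likelihood test, adjusted by Benjamini-Hochberg over all genes tested (threshold 0.05). Intervals are 95% intervals of the fitted change. Ratios and correlations were tested by exact two-sided permutation. Lengths and positions are from GENCODE M21 and matched 23376 of 24421 genes (95.7%). Figures were drawn with matplotlib 3.10.9. Only the gene-wise fits (quasi-likelihood, likelihood ratio and DESeq2) were tested on simulated data, for the neocortical genotype comparison and the interaction.

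The genes and lists were chosen with earlier results of these data known. Named genes are the 3 members, list genes past the threshold (there were 0, and those named were chosen after their values were seen), and per member the 3 genes with the highest r and the 3 nonmembers with the smallest distance. Same-numbered libraries of the 2 regions deviated together in controls (correlation across genes 0.130 to 0.335 in the 5 pairs), so the numbers pair them there. In cTKO mice 3 pairs were at 0.319 to 0.396, and numbers 4 and 5 were at -0.056 and -0.071. The libraries with embryonic globins were number 5 of cTKO neocortex and number 4 of cTKO hippocampus. Whether these numbers are crossed between the regions was not tested, so the block may join different mice in cTKO. Between genotypes the correlations ran from -0.0091 to 0.221 in the neocortex and from -0.137 to 0.140 in the hippocampus. Numbers were taken to pair libraries only where all 5 pairs exceeded 0.1. Since the methods give the same mice as the source of both regions, libraries of the 2 regions are not fully independent in either genotype. This holds for the correlations of the members, the region comparisons and the interaction. Alternatives were DESeq2 1.42.0, the likelihood ratio test, DESeq2 size factors, no filter, the replicate number as a block, one fit of all libraries, other gene lengths, and libraries left out.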

Additional observations from a re-analysis of the deposited data

Results flagged for a closer look

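Of 28 groups of 5 libraries examined for a library far from the rest, 1 was flagged. Aplp2 in control hippocampus was at 494 CPM in library 5 and at 630.3 to 679 CPM in the other 4 libraries, a gap of 0.736 of the whole range against a critical value of 0.71 by Dixon's rule. Chance flags about 1 in 20 such groups. The same library number was also lowest in control neocortex (622 CPM), which the rule did not flag. Without library 5, the share of Aplp2 left was 40.1% in the hippocampus.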

How the results depend on the processing

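The genotype effects on App, Aplp1 and Aplp2 kept their direction and stayed past the threshold in both regions under every alternative run. With the replicate number as a block, App/Aplp2 ratios (-0.50 in the neocortex, -0.53 in the hippocampus) and Aplp1/Aplp2 in the hippocampus (-0.69) no longer passed (adjusted p 0.125, sign flips of 5 pairs, which cannot pass at this number). Of 10 libraries, 7 in the neocortex and 2 in the hippocampus correlated best with their own number in the other genotype, and 6 of 10 cTKO libraries did so with the other region. With the block, the Aplp1 interaction changed sign to 0.0042, and the block changed no other call on the 3 genes. With libraries left out singly, the region effect in cTKO mice was 0.18 to 0.25 for App, -0.026 to 0.12 for Aplp1 and -0.0093 to 0.075 for Aplp2, the Aplp1 interaction -0.076 to 0.081, and the neocortical Aplp1/Aplp2 ratio -0.41 to -0.26. Correlations ranged from -0.82 to 0.53 (App with Aplp1), -0.29 to 0.22 (App with Aplp2) and -0.14 to 0.23 (Aplp1 with Aplp2) in controls, and from -0.49 to 0.37 for App with Aplp1 in cTKO mice. App with Aplp1 was -0.079 by Spearman's rho and -0.51 without the 2 farthest libraries in controls, and in cTKO mice -0.052 without TMM factors, -0.13 by rho, -0.34 without the 2 farthest libraries and -0.54 without the 2 libraries with embryonic globins. Without the latter, Aplp1 with Aplp2 was -0.092 and the App region effect in cTKO mice 0.18 (FDR 0.0770). The cause was not tested.

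Gene length moved the composition. Per kilobase of coding length, App made up 42.2% (control neocortex), 41.8% (control hippocampus), 37.3% (cTKO neocortex) and 40.4% (cTKO hippocampus), and Aplp1 37.3%, 40.8%, 37.1% and 35.4%. Per kilobase of the longest coding transcript, in the same order of groups, App made up 21.4%, 20.8%, 18.4% and 20.4%, Aplp1 55.9%, 60.2%, 54.0% and 52.8%, and Aplp2 22.7%, 19.0%, 27.6% and 26.8%. Against the control median, the share of Aplp2 left in the neocortex was 30.5%.

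The number of genes called over the whole table, 26 in the neocortex, 67 in the hippocampus and 8 for the interaction, was 222, 332 and 26 with DESeq2 and 167, 259 and 26 with the likelihood ratio test. It was 12 in the neocortex and 18 for the interaction with the block, 42 in the neocortex with no filter, 133 in the neocortex without the libraries with embryonic globins, and 189 in the hippocampus in one fit of 20 libraries. Depth did not limit the 3 genes (at least 3279 counts), but 5 libraries a group limit the ratio tests to p = 0.00794 (exact permutation).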
